A study of Mus musculus with 11 samples.

Results

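The genes described here are 10 genes of MHC class I antigen presentation and the immunoproteasome, B2m, H2-K1, H2-D1, Tap1, Tap2, Tapbp, Nlrc5, Psmb8, Psmb9 and Psmb10. They were taken by name from a table of 55416 gene identifiers, each name matched to 1 Ensembl identifier, and 8 of the 10 were abundant enough to be tested. Polyadenylated RNA had been sequenced from EC4, a mouse liver cancer cell line grown in culture, after 24 h in medium with 10 or 200 µM methionine. The 11 libraries comprised 3 of MYC high cells at 10 µM, 2 of MYC high cells at 200 µM, 3 of MYC low cells at 10 µM and 3 of MYC low cells at 200 µM. MYC high and MYC low are the names in the labels, which give the genotype as MYC on and MYC off. All cells were of the same line and had been grown at 200 µM methionine before the change of medium, per the labels' protocols. The sources used here give neither the agent that set the MYC state, nor the promoter driving MYC, nor the mouse strain of the line. A replicate 1 of the MYC high group at 200 µM was not analysed here. The title of the series names methionine metabolism and MYC-driven liver tumorigenesis as its subject. With 4 groups, MYC high can be set against MYC low cells in either medium, and scarce against ample methionine in either MYC state.

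MHC class I molecules show peptides from inside the cell to cytotoxic T cells. Proteasomes cut proteins into peptides, and in the immunoproteasome the catalytic subunits PSMB8, PSMB9 and PSMB10 take the places of PSMB5, PSMB6 and PSMB7, which alters the peptides made. The transporter TAP, a dimer of TAP1 and TAP2, carries the peptides into the endoplasmic reticulum, where tapasin, the product of Tapbp, helps to load them onto a class I heavy chain such as H2-K or H2-D that is bound to β2-microglobulin, the product of B2m. NLRC5 is a transactivator of class I genes, and interferon gamma is a strong inducer of the whole group. Hepatocytes normally carry low levels of class I, and loss of class I genes is a known route by which tumours avoid T cells.

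Reads on genes numbered 10858936 to 13085689 per library, spread over 17395 to 18462 genes. Values are normalized counts, which are reads divided by a size factor of the library, and 1 read was worth about 1 normalized count. The labels do not say whether libraries of a group came from separate cultures, so a p-value covers the spread between the libraries as sequenced, which may be technical only. At 10 µM mouse Myc averaged 336 ± 39.2 normalized counts in MYC high and 336 ± 13.5 in MYC low (SD, n = 3 each), so it did not separate these labels. At 200 µM Myc averaged 2089 ± 106 in MYC high cells (SD, n = 2), against 1136 ± 31.3 in MYC low cells (SD, n = 3). The labels give liver as the tissue, but all 7 listed hepatocyte markers, Alb among them, averaged under 1 normalized count. Of 5 fetal liver markers 1 averaged at least 10 normalized counts, Afp, with group means of 89.2 to 351 normalized counts, and of 4 epithelial markers 2 did, Krt8 with group means of 3446 to 14116 and Krt18 with 4140 to 6957. Of 10 immune cell markers 5 had no read in any library, including the pan-leukocyte gene Ptprc. The myeloid genes Cd68 and Csf1r were detected. The other 8 markers averaged under 1 normalized count, among them the myeloid genes Adgre1, Lyz2, Itgam and Clec4f. The summed immune markers stood at 873 to 906 normalized counts for MYC high and 931 to 974 for MYC low at 10 µM, against 263 to 286 for MYC high and 482 to 533 for MYC low at 200 µM. This sum was higher at 10 µM in both MYC states, as were most of the class I genes, while Ptprc was at 0 in all 11 libraries, and the part of Cd68 and Csf1r in those differences was not tested. Of 5 class II presentation genes, which mark professional antigen presenting cells, 4 averaged under 1 normalized count.

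Most class I and immunoproteasome transcripts were higher with 10 µM methionine than with 200 µM, and the main chains and tapasin were lower in MYC high than in MYC low cells. Tap1 went the other way and was higher in MYC high cells in both media. Tap2 and Psmb10 were higher in MYC high cells at 10 µM and lower at 200 µM. At 200 µM the difference of Psmb10 passed in only 14 of 22 settings of the fit, and that of Tap2 in all 22. Differences are on the scale of log2 of the normalized count plus 1, which understates changes of low values, and a gene is called changed where the limma p adjusted over all 12909 tested genes was under 0.05. Changes were widespread in these cells, so each count of called class I genes has to be read against the share of all tested genes that was called.

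With 10 against 200 µM methionine, 8 of the 8 tested genes rose in MYC high cells, where 75.8% of all tested genes were called in either direction and 37.9% rose. Their median difference was 0.64 on the log2 scale, and that of all tested genes was −0.00. In MYC low cells 6 of the 8 rose and none fell, where 59.4% of all tested genes were called, 29.4% rising and 29.9% falling, and the median difference was 0.31 for the 8 genes and 0.00 for all tested genes. Between MYC high and MYC low cells at 10 µM, 3 of the 8 were higher and 4 lower in MYC high cells, where 71.5% of all tested genes were called, 35.7% higher and 35.8% lower. At 200 µM 1 was higher and 6 were lower in MYC high cells, where 74.4% were called, 36.8% higher and 37.6% lower. The median MYC difference was −0.15 at 10 µM and −0.78 at 200 µM for the 8 genes, and 0.00 and −0.00 for all tested genes. The interaction is the response to methionine of MYC high cells minus that of MYC low cells. It passed for 4 of the 8, all positive. Of all tested genes 60.4% were called, with 31% of all tested genes in the positive direction and 29.4% in the negative. The libraries of the groups compared did not overlap for 8 of the 8 genes between the media in MYC high cells (81.5% of all tested genes), 6 between the media in MYC low cells (65.5%), 8 between the MYC states at 10 µM (73.7%) and 7 at 200 µM (81.4%). The comparison of media in MYC high cells and that of MYC states at 200 µM use the same 2 MYC high libraries, and each other group likewise serves in 2 comparisons, so these results are not independent of each other. In bulk RNA such as this, fewer cells with a transcript and less of it in each cell cannot be told apart.

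**Figure D1:**
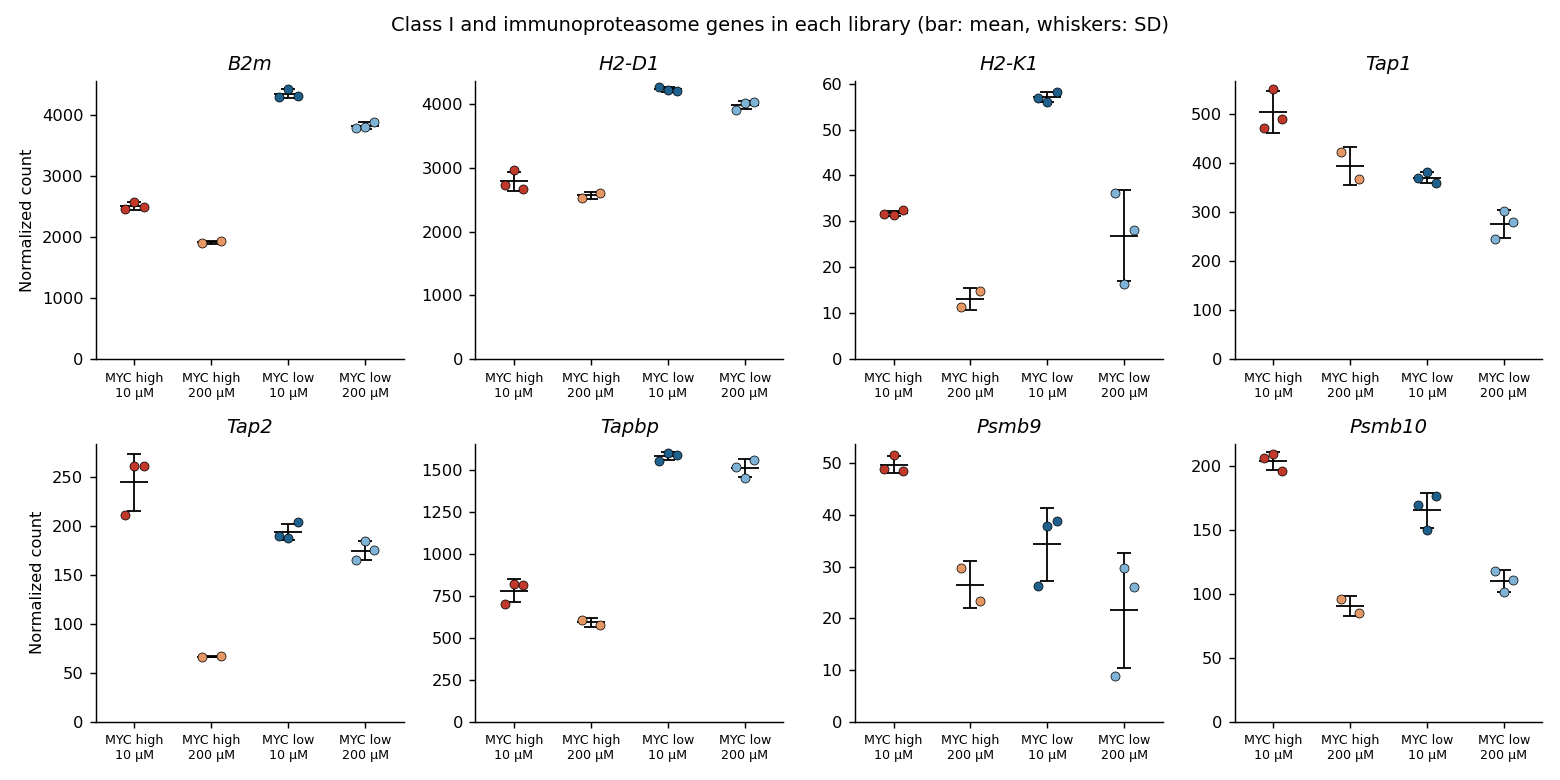
Normalized counts of 8 class I and immunoproteasome genes in each library, 1 panel per gene, with the 4 groups on the horizontal axis, points for libraries, long bars for group means and whiskers for the SD. B2m, H2-D1 and Tapbp are lower in MYC high than in MYC low cells, and Tap2 stands alone at 66.3 and 66.8 in the 2 MYC high libraries at 200 µM.

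The panels of values by library show 3 shapes. B2m, H2-D1, H2-K1 and Tapbp had their highest mean in MYC low cells at 10 µM and their lowest in MYC high cells at 200 µM. Tap2 and Psmb10 were highest in MYC high cells at 10 µM and lowest in MYC high cells at 200 µM. Tap1 and Psmb9 had their highest mean in MYC high cells at 10 µM and their lowest in MYC low cells at 200 µM. For Psmb9 the libraries of the MYC states overlapped at 200 µM. Without replicate 1 of MYC low cells its MYC difference there was −0.08, so its lowest group is uncertain.

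The light chain gene B2m (ENSMUSG00000060802) had 2450, 2573 and 2489 normalized counts in MYC high cells and 4288, 4427 and 4311 in MYC low cells at 10 µM. At 200 µM, B2m had 1897 and 1931 in MYC high cells and 3785, 3795 and 3891 in MYC low cells. No 2 of the 4 groups overlapped, and the order from highest to lowest was MYC low at 10 µM, MYC low at 200 µM, MYC high at 10 µM and MYC high at 200 µM. The MYC difference was −0.79 ± 0.032 at 10 µM (log2, SE, limma adjusted p = 1.28e-22) and −0.998 ± 0.036 at 200 µM (limma adjusted p = 4.36e-24), and the level at 10 µM was 1.73-fold lower in MYC high cells. At the lower methionine level B2m rose by 0.39 ± 0.036 in MYC high cells (limma adjusted p = 4.42e-12) and by 0.18 ± 0.032 in MYC low cells (limma adjusted p = 7.49e-06). The response in MYC high cells was the larger by 0.20 ± 0.049 (limma adjusted p = 4.63e-04).

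H2-D1 (ENSMUSG00000073411), the heavy chain gene of the D locus, had 2729, 2964 and 2677 normalized counts in MYC high cells and 4277, 4225 and 4208 in MYC low cells at 10 µM. The counts at 200 µM were 2525 and 2612 in MYC high cells and 3918, 4015 and 4044 in MYC low cells. Its 4 groups had the same order as those of B2m and did not overlap. H2-D1 was lower in MYC high cells by a log2 difference of −0.60 ± 0.035 at 10 µM (SE, limma adjusted p = 4.86e-18) and −0.64 ± 0.039 at 200 µM (limma adjusted p = 2.71e-17). The methionine differences were small, 0.12 ± 0.039 in MYC high cells (limma adjusted p = 6.36e-03) and 0.09 ± 0.035 in MYC low cells (limma adjusted p = 0.0322). In MYC high cells the call was lost without replicate 2 at 10 µM (0.07, limma adjusted p = 0.0599) or replicate 2 at 200 µM (0.09, limma adjusted p = 0.0806), in a range of 1.85e-04 to 0.0806 over the alternatives. In MYC low cells it was lost without any 1 of the 3 libraries at 10 µM or without replicate 1 or 2 at 200 µM, with differences of 0.07 to 0.09 and limma adjusted p of 0.0538 to 0.120. With no filter on low values it was lost as well (limma adjusted p = 0.0835), and the alternatives ranged from 3.92e-03 to 0.120. The interaction was 0.03 ± 0.052 (limma adjusted p = 0.609), with a 95% interval of −0.07 to 0.14.

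H2-K1 (ENSMUSG00000061232), the heavy chain gene of the K locus, was far less abundant. It had 31.6, 31.4 and 32.4 normalized counts in MYC high cells and 56.9, 56.0 and 58.2 in MYC low cells at 10 µM. With 200 µM methionine H2-K1 had 11.4 and 14.9 in MYC high cells and 36.1, 16.4 and 28.1 in MYC low cells. The MYC low libraries at 200 µM were spread widely and overlapped those of MYC high cells at 10 µM, while the groups of each comparison were separate. H2-K1 was lower in MYC high cells, with a difference of −0.82 ± 0.243 at 10 µM (log2, SE, limma adjusted p = 2.94e-03) and −0.92 ± 0.272 at 200 µM (limma adjusted p = 2.82e-03). H2-K1 rose at 10 against 200 µM by 1.22 ± 0.272 in MYC high cells (limma adjusted p = 1.25e-04) and by 1.13 ± 0.243 in MYC low cells (limma adjusted p = 1.32e-04). These were 2.34-fold and 2.19-fold differences, larger in size than those of B2m and H2-D1. The interaction was 0.10 ± 0.365 (limma adjusted p = 0.834), with a 95% interval of −0.64 to 0.84, so a sizeable difference in response in either direction was within the error.

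Per kilobase of the longest annotated transcript, H2-D1 stood at 1327 normalized counts and H2-K1 at 17.0 in MYC high cells at 10 µM. In MYC low cells at 10 µM they stood at 2016 and 30.4. B2m stood at 2912 for MYC high and 5049 for MYC low at 10 µM, above either heavy chain. Class I genes are highly polymorphic and have near copies, which bears on the counts of both heavy chains. Of the 50-base stretches of the H2-D1 coding transcript 14.3% were also present in transcripts of other genes, led by H2-Q1, H2-Q7, H2-Q6, H2-K1 and H2-T23, and 8.79% of those of H2-K1. For 100-base stretches the shares were 4.64% for H2-D1 and 0% for H2-K1, and 0% for B2m at either length. No source used here gives the read length, the treatment of reads that match several genes or the class I alleles of EC4, so the levels of H2-D1 and H2-K1 are uncertain in a way that those of B2m are not.

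The promoters of the 3 chain genes are shown because these genes moved in the same direction in all 4 comparisons and because the motifs of class I promoters are well described. The sequences are those of RefSeq on the build GRCm38.p6, 250 bases ending just before the annotated start, printed 5′ to 3′ on the strand of the gene. Capitals mark matches on either strand to the motifs searched.
B2m, chr2:122147437-122147686, plus strand: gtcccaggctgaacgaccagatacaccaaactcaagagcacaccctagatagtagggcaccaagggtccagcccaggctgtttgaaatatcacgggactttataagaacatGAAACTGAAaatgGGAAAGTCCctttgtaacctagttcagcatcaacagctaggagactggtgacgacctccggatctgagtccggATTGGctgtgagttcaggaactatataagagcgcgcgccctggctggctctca
H2-D1, chr17:35262844-35263093, plus strand: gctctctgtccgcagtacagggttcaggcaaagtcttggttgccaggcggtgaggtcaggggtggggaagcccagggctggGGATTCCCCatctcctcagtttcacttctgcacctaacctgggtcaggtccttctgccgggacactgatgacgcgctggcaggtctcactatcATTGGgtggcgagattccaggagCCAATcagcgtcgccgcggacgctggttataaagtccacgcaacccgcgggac
H2-K1, chr17:34000348-34000597, minus strand, the first of 2 entries: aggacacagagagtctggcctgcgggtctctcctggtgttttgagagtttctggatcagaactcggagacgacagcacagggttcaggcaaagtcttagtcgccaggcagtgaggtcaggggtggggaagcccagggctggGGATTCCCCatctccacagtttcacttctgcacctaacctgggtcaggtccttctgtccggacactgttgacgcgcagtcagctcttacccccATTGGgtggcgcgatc

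The H2-K1 and H2-D1 windows were alike in 161 of 177 aligned columns, or 91.0%, with a longest shared run of 47 bases that includes the NF-kB motif GGATTCCCC. That motif lay at −169 to −161 from the start in H2-D1 and at −109 to −101 in H2-K1, and 0.240% of the 32851 promoters in the table held it. The B2m window held the interferon stimulated response element core TTCNNTTTC at −139 to −131, present in 7.13% of all promoters, and the NF-kB motif GGANTTTCC at −126 to −118, present in 1.07%. The Y box CCAAT, bound by NF-Y, was found in 6 of the 8 of these genes with a promoter entry, against 33.8% of all promoters, and lay at −53 to −49 in B2m. The 6 were B2m, H2-D1, H2-K1, Tap1, Tapbp and Psmb9. These 6 are not independent of each other. The match of Psmb9 is that of Tap1 in a shared window, and the H2-K1 and H2-D1 windows are near copies. The STAT site core TTCNNNGAA, present in 7.02% of all promoters, was found in Psmb8 and in no other of the 8, and the E box CACGTG, the site of MYC and MAX, present in 6.02%, in Psmb10 and in no other. The letters TGACGCAA and TGACGTCA were in none of the 8 windows and in 0.438% and 1.55% of all promoters. For these, related letters such as tgacgcg in the H2-D1 and H2-K1 windows did not count as matches. Both strands were searched, no matches overlapped, and a match is a description of the letters only. Only exact forms were marked, so the letters tttcacttc, which lie in both the H2-D1 and H2-K1 windows and resemble TTCNNTTTC, were not. Related forms were not searched, so a window without a match is not shown to lack such an element.

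**Figure D2:**
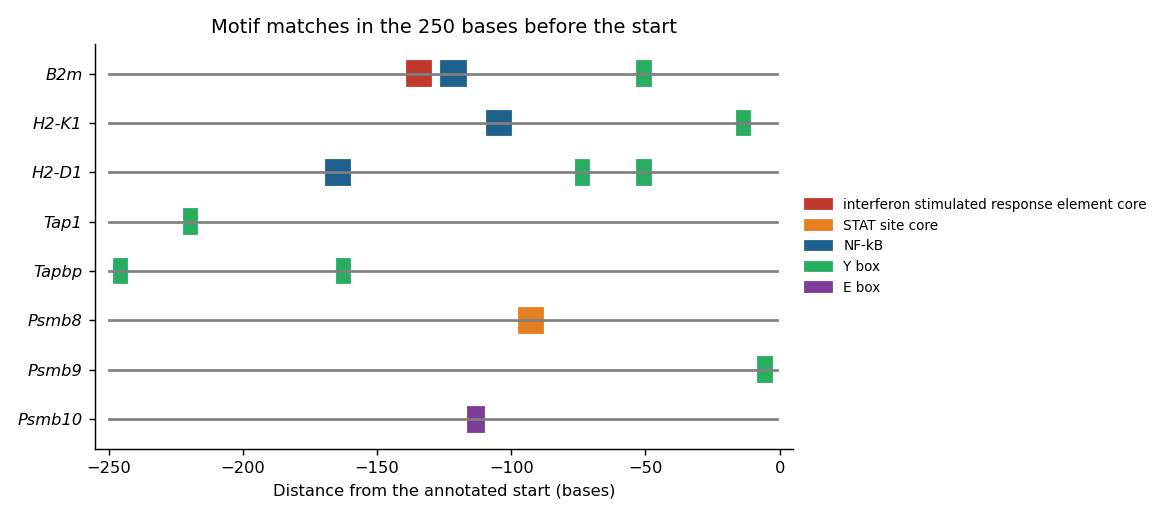
Motif matches in the 250 bases before the annotated start of the 8 genes with a promoter entry, with distance from the start in bases on the horizontal axis and 1 row per gene, boxes coloured by motif. B2m carries an interferon response core and an NF-kB match next to each other, H2-K1 and H2-D1 each carry an NF-kB match, and Y box matches are present in 6 of the 8 rows. Only exact matches to the letters searched are shown.

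The map of motif matches places the response element core and NF-kB match of B2m next to each other without overlap. Psmb8 and Psmb10 are the rows without a Y box match.

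Among the loading genes Tap1 and Tap2 parted ways although their products form 1 transporter. Tap1 (ENSMUSG00000037321) had 470.6, 551.9 and 489.0 normalized counts in MYC high cells and 369.7, 381.4 and 358.9 in MYC low cells at 10 µM. At 200 µM, Tap1 had 421.6 and 367.1 in MYC high cells and 244.7, 301.9 and 279.7 in MYC low cells. MYC high libraries lay above MYC low libraries within each medium, and MYC high cells at 200 µM overlapped MYC low cells at 10 µM. Tap1 was higher in MYC high cells by 0.44 ± 0.077 at 10 µM (log2, SE, limma adjusted p = 3.99e-06) and 0.52 ± 0.086 at 200 µM (limma adjusted p = 1.61e-06). Tap1 rose at 10 against 200 µM by 0.35 ± 0.086 in MYC high cells (limma adjusted p = 3.99e-04) and by 0.43 ± 0.077 in MYC low cells (limma adjusted p = 9.47e-06). The interaction was −0.08 ± 0.116 (limma adjusted p = 0.588), with a 95% interval of −0.31 to 0.16.

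Tap2 (ENSMUSG00000024339) had 210.9, 261.3 and 261.2 normalized counts in MYC high cells and 189.8, 187.9 and 203.7 in MYC low cells at 10 µM. At 200 µM, Tap2 had 66.3 and 66.8 in MYC high cells and 164.8, 184.2 and 175.2 in MYC low cells. The pair of MYC high libraries at 200 µM thus lay far below all the others, and no 2 groups overlapped. Tap2 was higher in MYC high cells by 0.33 ± 0.104 at 10 µM (log2, SE, limma adjusted p = 5.42e-03) and lower at 200 µM, with a difference of −1.38 ± 0.116 (limma adjusted p = 3.05e-13). Tap2 rose at 10 against 200 µM by 1.85 ± 0.116 in MYC high cells, 3.62-fold (limma adjusted p = 5.93e-17). In MYC low cells the difference was 0.15 ± 0.104 (limma adjusted p = 0.219), with a 95% interval of −0.06 to 0.36. The interaction of 1.71 ± 0.156 was the largest among the 8 genes (limma adjusted p = 7.45e-12).

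The ratio of Tap1 to Tap2, each per kilobase of its longest annotated transcript, shows the difference between the genes within each library. At 10 µM the ratio averaged 1.82 ± 0.161 for MYC high and 1.68 ± 0.121 for MYC low cells (SD, n = 3 each). At 200 µM it was 5.60 and 4.83 in MYC high cells and 1.31, 1.44 and 1.41 in MYC low cells. MYC high cells at 200 µM therefore stood apart from the other 3 groups, all of whose libraries lay between 1.31 and 1.96. These ratios were not tested, since they were formed after the values of the genes were known.

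**Figure D3:**
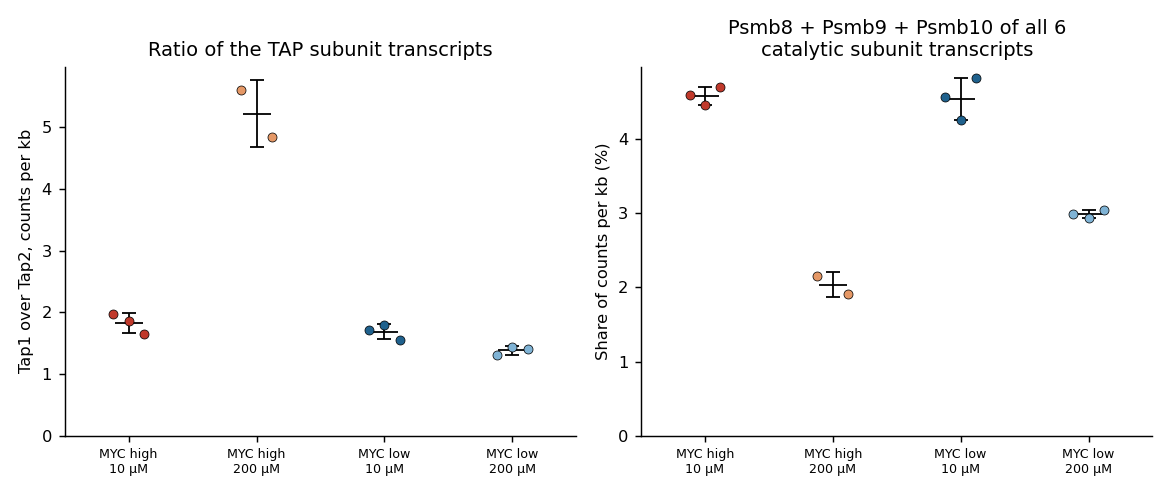
Left, the ratio of Tap1 to Tap2 in normalized counts per kilobase in each library of the 4 groups. Right, the share of Psmb8, Psmb9 and Psmb10 in the summed normalized counts per kilobase of all 6 catalytic subunit genes, in percent, with points for libraries, long bars for means and whiskers for the SD. The ratio is 4.83 and 5.60 in MYC high cells at 200 µM, and the share is lowest there, at 1.92% and 2.15%.

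Tapbp (ENSMUSG00000024308), the gene of tapasin, had 700.9, 820.3 and 817.1 normalized counts in MYC high cells and 1556, 1601 and 1587 in MYC low cells at 10 µM. At 200 µM, Tapbp had 609.0 and 573.9 in MYC high cells and 1518, 1451 and 1558 in MYC low cells. MYC high libraries lay below all MYC low libraries, while the MYC low libraries of both media overlapped. Tapbp was lower in MYC high cells, with a difference of −1.02 ± 0.050 at 10 µM (log2, SE, limma adjusted p = 3.91e-20) and −1.35 ± 0.056 at 200 µM (limma adjusted p = 2.70e-22), or 2.03-fold and 2.55-fold. Tapbp rose at 10 against 200 µM by 0.39 ± 0.056 in MYC high cells (limma adjusted p = 7.70e-08). The difference in MYC low cells was 0.07 ± 0.050 (limma adjusted p = 0.249), with a 95% interval of −0.03 to 0.17. The interaction was 0.33 ± 0.075 (limma adjusted p = 3.09e-04).

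Tap2 and Tapbp overlap other annotated genes in their exons, and the sources used here do not say whether strand was used in counting. Tap2 shares 14.1% of its exon bases with Gm15821 and 4.36% with Gm20496, both on the opposite strand. Gm15821 averaged 88.6 normalized counts in MYC high and 75.3 in MYC low at 10 µM, against 20.6 in MYC high and 71.6 in MYC low at 200 µM. Gm20496 averaged 24.4 in MYC high and 25.4 in MYC low at 10 µM, against 6.08 in MYC high and 24.0 in MYC low at 200 µM. Both were thus low in the same libraries as Tap2. Tapbp shares 24.9% of its exon bases with Gm19412 on the opposite strand and 4.11% with its neighbour Zbtb22 on the same strand. Gm19412 averaged 238 in MYC high and 478 in MYC low at 10 µM, against 183 in MYC high and 479 in MYC low at 200 µM. Zbtb22 averaged 290 in MYC high and 564 in MYC low at 10 µM, against 212 in MYC high and 559 in MYC low at 200 µM, again with the lowest mean where Tapbp had its lowest. Without strand, reads of such partners cannot be told apart, and their part in the differences of Tap2 and Tapbp was not tested.

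Tap1 and the immunoproteasome gene Psmb9 lie head to head with annotated starts 226 bases apart on GRCm38.p6, so that their promoter windows share 225 bases, and the window is shown for that reason.
Tap1, chr17:34187306-34187555, plus strand: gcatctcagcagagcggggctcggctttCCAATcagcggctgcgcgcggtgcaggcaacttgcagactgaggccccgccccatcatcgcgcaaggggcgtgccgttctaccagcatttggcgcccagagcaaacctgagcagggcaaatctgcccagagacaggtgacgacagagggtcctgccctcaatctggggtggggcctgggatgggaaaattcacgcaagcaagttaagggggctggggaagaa

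The capitals mark a Y box at −222 to −218 from the Tap1 start, which is the match at −8 to −4 of Psmb9 read on the other strand. Exons of Tap1 and Psmb9 also overlap by 212 bases in the annotation, 5.79% of those of Psmb9.

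Psmb9 (ENSMUSG00000096727), whose product replaces PSMB6, had 48.9, 51.6 and 48.6 normalized counts in MYC high cells and 26.2, 37.9 and 38.8 in MYC low cells at 10 µM. The 200 µM libraries had 29.7 and 23.3 in MYC high cells and 8.78, 29.7 and 26.1 in MYC low cells, where replicate 1 stood far below the others. At 10 µM the MYC groups did not overlap, and at 200 µM they did. The MYC difference did not pass the test at 10 µM (0.54 ± 0.284, log2, SE, limma adjusted p = 0.0854) nor at 200 µM (0.44 ± 0.317, limma adjusted p = 0.206, 95% interval −0.20 to 1.09). At 10 µM it passed without replicate 1 of MYC low cells at 200 µM (limma adjusted p = 0.0252), with the 2 groups fitted alone (limma adjusted p = 0.0153) and by edgeR (adjusted p = 0.0268), in a range of 0.0153 to 0.308. At 200 µM it became −0.08 without replicate 1 of MYC low cells (limma adjusted p = 0.804) and 0.75 without replicate 2 (limma adjusted p = 0.0449), the ends of the range over the alternatives.

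Psmb9 rose at 10 against 200 µM by 0.89 ± 0.317 in MYC high cells (log2, SE, limma adjusted p = 0.0115) and by 0.79 ± 0.284 in MYC low cells (limma adjusted p = 0.0159), and in MYC low cells the libraries of the media overlapped. In MYC low cells the difference was 0.27 without replicate 1 at 200 µM (limma adjusted p = 0.353), so that this library set its size. The call was also lost there without replicate 2 (0.71, limma adjusted p = 0.0624) or replicate 3 at 10 µM (0.69, limma adjusted p = 0.0648), with no filter on low values (limma adjusted p = 0.0919) and by DESeq2 (adjusted p = 0.0563), in a range of 2.70e-03 to 0.353. In MYC high cells it was lost without replicate 3 at 200 µM (0.72, limma adjusted p = 0.101) and with no filter on low values (limma adjusted p = 0.0698), in a range of 8.99e-04 to 0.101. The interaction was 0.10 ± 0.426 (limma adjusted p = 0.853), and with 9 to 51 reads in a library Psmb9 leaves room for sizeable differences.

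Psmb10 (ENSMUSG00000031897), whose product replaces PSMB7, had 206.8, 209.6 and 196.4 normalized counts in MYC high cells and 169.9, 149.9 and 176.4 in MYC low cells at 10 µM. The 200 µM libraries had 96.0 and 84.9 in MYC high cells and 118.0, 101.3 and 111.3 in MYC low cells. No 2 groups overlapped, and MYC high cells had both the highest and the lowest group. Psmb10 rose at 10 against 200 µM by 1.17 ± 0.124 in MYC high cells, 2.25-fold (log2, SE, limma adjusted p = 9.89e-11), and by 0.58 ± 0.111 in MYC low cells (limma adjusted p = 2.36e-05). The interaction was 0.59 ± 0.166 (limma adjusted p = 2.56e-03).

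The MYC differences of Psmb10 were smaller and of opposite sign, 0.31 ± 0.111 at 10 µM (log2, SE, limma adjusted p = 0.0138) and −0.28 ± 0.124 at 200 µM (limma adjusted p = 0.0392). The difference at 10 µM lost its call without replicate 2 of MYC low cells at 10 µM (0.24, limma adjusted p = 0.0897), in a range of 4.53e-03 to 0.0897. That at 200 µM lost it without replicate 3 of MYC high cells (−0.19, limma adjusted p = 0.250), replicate 1 (−0.23, limma adjusted p = 0.123) or replicate 3 of MYC low cells (−0.27, limma adjusted p = 0.0718). It was also lost by edgeR (adjusted p = 0.0586) and DESeq2 (adjusted p = 0.135), with the replicate number as a block (limma adjusted p = 0.0764), with no filter on low values (limma adjusted p = 0.0519) and with the 2 groups fitted alone (limma adjusted p = 0.0865), in a range of 7.84e-03 to 0.250.

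Psmb8 and Nlrc5 were at or near the limit of detection. Psmb8 (ENSMUSG00000024338), whose product replaces PSMB5, had 2, 0 and 1 reads in MYC high cells and 3, 2 and 1 reads in MYC low cells at 10 µM, and 3 and 0 reads in MYC high cells and 1, 0 and 0 reads in MYC low cells at 200 µM. These 13 reads were too few for a comparison. Nlrc5 (ENSMUSG00000074151), the class I transactivator, was listed at 0 reads in each of the 11 libraries. By counting error alone a library could still hold up to 3 reads, or 2.65 to 3.43 normalized counts. At this depth Nlrc5 transcripts were not detectable in any group.

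The standard catalytic subunits were far more abundant than the immunoproteasome subunits. Psmb5, Psmb6 and Psmb7 were all higher in MYC high cells, by 0.39, 0.26 and 0.34 on the log2 scale at 10 µM and by 0.62, 0.25 and 0.35 at 200 µM, each under a limma adjusted p of 0.05. At 10 against 200 µM Psmb5 and Psmb6 fell and Psmb7 rose in both MYC states. Per kilobase, Psmb8, Psmb9 and Psmb10 together made up 4.46% to 4.70% of the 6 catalytic subunit transcripts of MYC high cells at 10 µM, and 4.25% to 4.82% of those of MYC low cells. At 200 µM they made up 1.92% and 2.15% in MYC high cells and 2.94% to 3.05% in MYC low cells. The panel of shares shows that both MYC states overlapped at 10 µM and were separate at 200 µM, and that the libraries at 10 µM lay above those at 200 µM in each MYC state. Most of the share was Psmb10 in each group. In MYC high cells at 10 µM Psmb10 averaged 156 normalized counts per kilobase, Psmb9 17.2 and Psmb8 0.53. The values in MYC high cells at 200 µM were 69.0, 9.20 and 0.90. The share has no test.

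**Figure D4:**
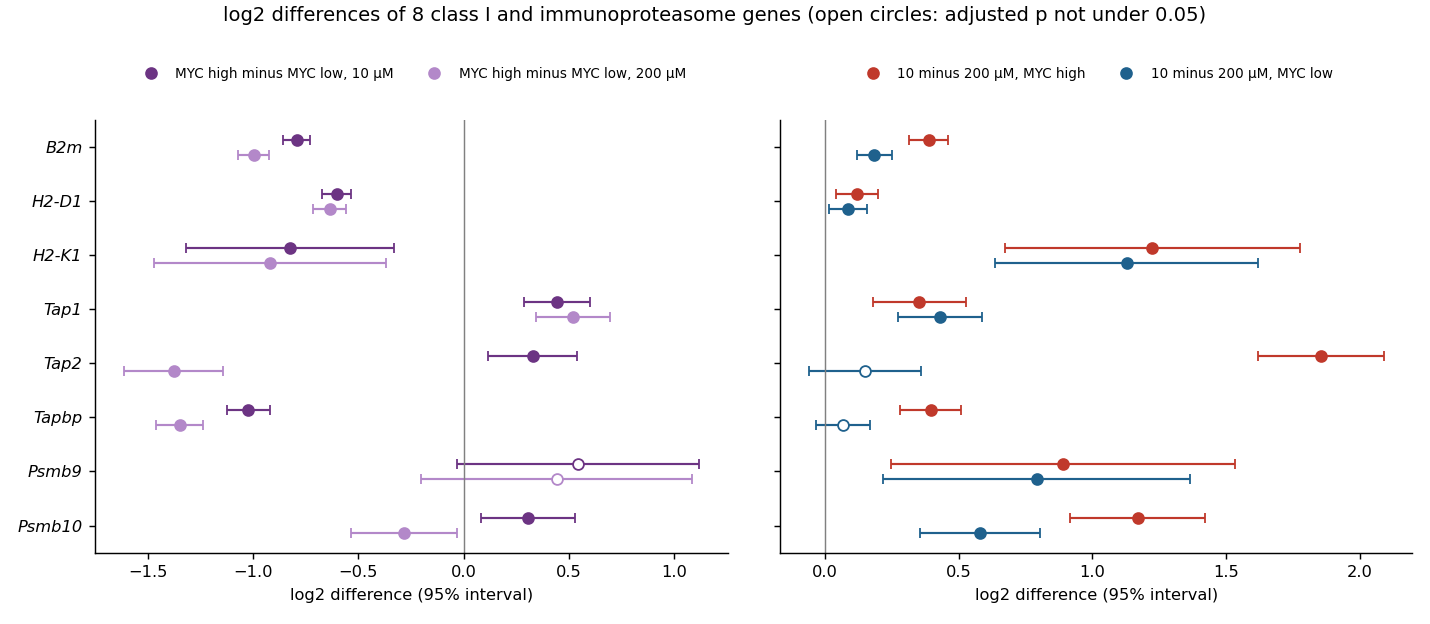
log2 differences of the 8 tested genes with 95% intervals, for MYC high minus MYC low cells in each medium (left) and 10 minus 200 µM methionine in each MYC state (right). Open circles did not pass a limma adjusted p of 0.05. All points on the right are above 0, and on the left Tap2 and Psmb10 lie on opposite sides of 0 in the 2 media.

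The plot of differences sets the responses side by side. Tap2 had the largest methionine difference in MYC high cells, 1.85, followed by H2-K1 at 1.22 and Psmb10 at 1.17. In MYC low cells H2-K1 had the largest, 1.13, and Tapbp the smallest, 0.07.

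Other genes of the pathway did not share 1 direction, and the counts of each list are set against the share of all tested genes that was called. The list of other class I and class I-like chains held 21 genes, of which 7 were tested. In MYC high against MYC low cells 3 were higher and 3 lower at 10 µM, and 1 higher and 2 lower at 200 µM, with medians of −0.05 and −0.14, where 71.5% and 74.4% of all tested genes were called. With 10 against 200 µM 2 rose and 3 fell in MYC high cells, and 2 rose and 1 fell in MYC low cells, against 75.8% and 59.4% called of all tested genes. H2-T23, the nonclassical chain that presents leader peptides of other class I chains, averaged 183 ± 4.99 normalized counts at 10 µM in MYC high and 103 ± 11.1 in MYC low (SD, n = 3 each), a difference of 0.83 ± 0.119 (log2, SE, limma adjusted p = 1.03e-07). Its MYC difference at 200 µM was 0.23 ± 0.133 and did not pass (limma adjusted p = 0.119). H2-T10, another nonclassical chain, was lower in MYC high cells, with a difference of −0.61 ± 0.075 at 10 µM (limma adjusted p = 4.48e-09) and −0.18 ± 0.084 at 200 µM (limma adjusted p = 0.0488). Ulbp1, a ligand of the NK cell receptor NKG2D, averaged 9.47 ± 2.13 at 10 µM in MYC high and 60.8 ± 4.71 in MYC low (SD, n = 3 each), a difference of −2.58 ± 0.221 (log2, SE, limma adjusted p = 5.04e-13). Fcgrt, the neonatal Fc receptor that also binds β2-microglobulin, rose by 2.89 ± 0.336 in MYC high cells (limma adjusted p = 8.85e-10) and by 1.46 ± 0.300 in MYC low cells (limma adjusted p = 6.91e-05) at 10 against 200 µM.

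All 10 genes of other loading and trimming steps were tested. In MYC high against MYC low cells 1 was higher and 7 lower at 10 µM, and 4 higher and 5 lower at 200 µM, where 71.5% and 74.4% of all tested genes were called. At 10 against 200 µM 2 rose and 5 fell in MYC high cells, and 5 rose and 2 fell in MYC low cells, where 75.8% and 59.4% were called. Calr, the gene of calreticulin, a chaperone of the peptide loading complex, fell by 0.66 in MYC high cells (limma adjusted p = 1.54e-20) and rose by 0.64 in MYC low cells (limma adjusted p = 5.01e-21), an interaction of −1.30 ± 0.042 (limma adjusted p = 9.13e-25). Pdia3, the oxidoreductase bound to tapasin, had an interaction of −0.67 ± 0.041 in the same direction (limma adjusted p = 1.25e-16). Erap1, which trims peptides in the endoplasmic reticulum, was lower in MYC high cells, with a difference of −1.10 ± 0.062 at 10 µM (limma adjusted p = 2.43e-18) and −0.94 ± 0.069 at 200 µM (limma adjusted p = 5.72e-15). Blmh, the gene of bleomycin hydrolase, a cytosolic aminopeptidase, was higher in MYC high cells by 0.99 ± 0.058 at 10 µM (limma adjusted p = 1.25e-17) and 1.08 ± 0.065 at 200 µM (limma adjusted p = 2.20e-17).

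Psme1 and Psme2 code for the subunits of the interferon-inducible proteasome activator PA28. Both were lower in MYC high cells, with differences of −0.30 and −0.64 at 10 µM and −0.99 and −0.89 at 200 µM, each under a limma adjusted p of 0.05. Psme3, whose product forms the nuclear activator PA28 gamma, and Pomp, the gene of the proteasome maturation protein, were higher in MYC high cells, with differences of 0.13 and 0.24 at 10 µM and 0.51 for each at 200 µM, each under a limma adjusted p of 0.05. Psme1 rose by 0.79 ± 0.099 at 10 against 200 µM in MYC high cells (log2, SE, limma adjusted p = 4.17e-09), with an interaction of 0.68 ± 0.132 (limma adjusted p = 3.14e-05). Its difference of 0.11 in MYC low cells did not pass (limma adjusted p = 0.280). Psme2 did not share this rise, with 0.02 in MYC high cells (limma adjusted p = 0.827) and −0.23 in MYC low cells (limma adjusted p = 2.65e-03). Psme3 fell by 0.69 in MYC high cells (limma adjusted p = 8.80e-19) and by 0.31 in MYC low cells (limma adjusted p = 4.33e-10). Of the 5 activators and maturation factors listed, 2 were higher and 2 lower in MYC high cells at 10 µM, and 2 higher and 3 lower at 200 µM, where 71.5% and 74.4% of all tested genes were called. With 10 against 200 µM 3 rose and 1 fell in MYC high cells, and 2 rose and 2 fell in MYC low cells, where 75.8% and 59.4% were called.

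Of 26 regulators listed, which are interferon receptors, kinases, STAT and IRF factors, the RFX and NF-Y factors of class I promoters, NF-kB and SOCS genes, 25 were tested. In MYC high against MYC low cells 4 were higher and 17 lower at 10 µM, and 10 higher and 13 lower at 200 µM, with medians of −0.22 and −0.31. Of all tested genes 35.7% were higher and 35.8% lower at 10 µM, and 36.8% higher and 37.6% lower at 200 µM. Ifngr1, the ligand-binding chain of the interferon gamma receptor, averaged 654 ± 44.5 normalized counts at 10 µM in MYC high and 2482 ± 27.8 in MYC low (SD, n = 3 each), a difference of −1.93 ± 0.046 (log2, SE, limma adjusted p = 5.20e-30). Its mean at 200 µM was 332 ± 15.1 in MYC high cells (SD, n = 2), against 2033 ± 45.0 in MYC low cells (SD, n = 3), a difference of −2.61 ± 0.052 (limma adjusted p = 3.28e-32). The receptor kinase gene Jak2 was lower in MYC high cells, with a difference of −0.70 at 10 µM and −1.23 at 200 µM, with limma adjusted p of 6.48e-19 and 7.02e-25.

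At 10 against 200 µM 12 of the 25 regulators rose and 8 fell in MYC high cells, and 13 rose and 6 fell in MYC low cells, with medians of 0.22 and 0.19, where 75.8% and 59.4% of all tested genes were called. Tyk2, a kinase of the interferon alpha receptor, had the smallest interaction p of the list. It averaged 508 ± 23.8 normalized counts at 10 µM in MYC high and 586 ± 6.43 in MYC low (SD, n = 3 each), and 163 ± 6.23 in MYC high cells (SD, n = 2), against 502 ± 8.31 for MYC low (SD, n = 3), at 200 µM. Like Tap2 it was low in MYC high cells at 200 µM, with an interaction of 1.41 ± 0.094 (log2, SE, limma adjusted p = 1.43e-15). Nfyb, a subunit of the Y box factor NF-Y, fell by 1.72 in MYC high cells (limma adjusted p = 9.62e-25) and by 1.03 in MYC low cells (limma adjusted p = 8.44e-19).

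Of 6 described repressors of class I, 6 fell at 10 against 200 µM in MYC high cells, with a median of −0.47, where 37.9% of all tested genes fell. Among them 2 rose and 3 fell in MYC low cells, with a median of −0.11, where 29.4% of all tested genes rose and 29.9% fell. In MYC high against MYC low cells 2 were higher and 3 lower at 10 µM, and 4 higher and 1 lower at 200 µM, where 71.5% and 74.4% of all tested genes were called. Susd6, which with Tmem127 and Wwp2 was described to send class I molecules to degradation, fell by 0.83 in MYC high cells (limma adjusted p = 2.70e-19). Ezh2, the methyltransferase of the Polycomb complex that silences antigen presentation genes in some tumours, averaged 1376 ± 30.6 normalized counts at 10 µM in MYC high and 1469 ± 60.9 in MYC low (SD, n = 3 each). Its mean at 200 µM was 1933 ± 48.8 in MYC high cells (SD, n = 2), against 1269 ± 44.2 in MYC low cells (SD, n = 3), and the interaction was −0.70 ± 0.062 (log2, SE, limma adjusted p = 3.02e-12).

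**Figure D5:**
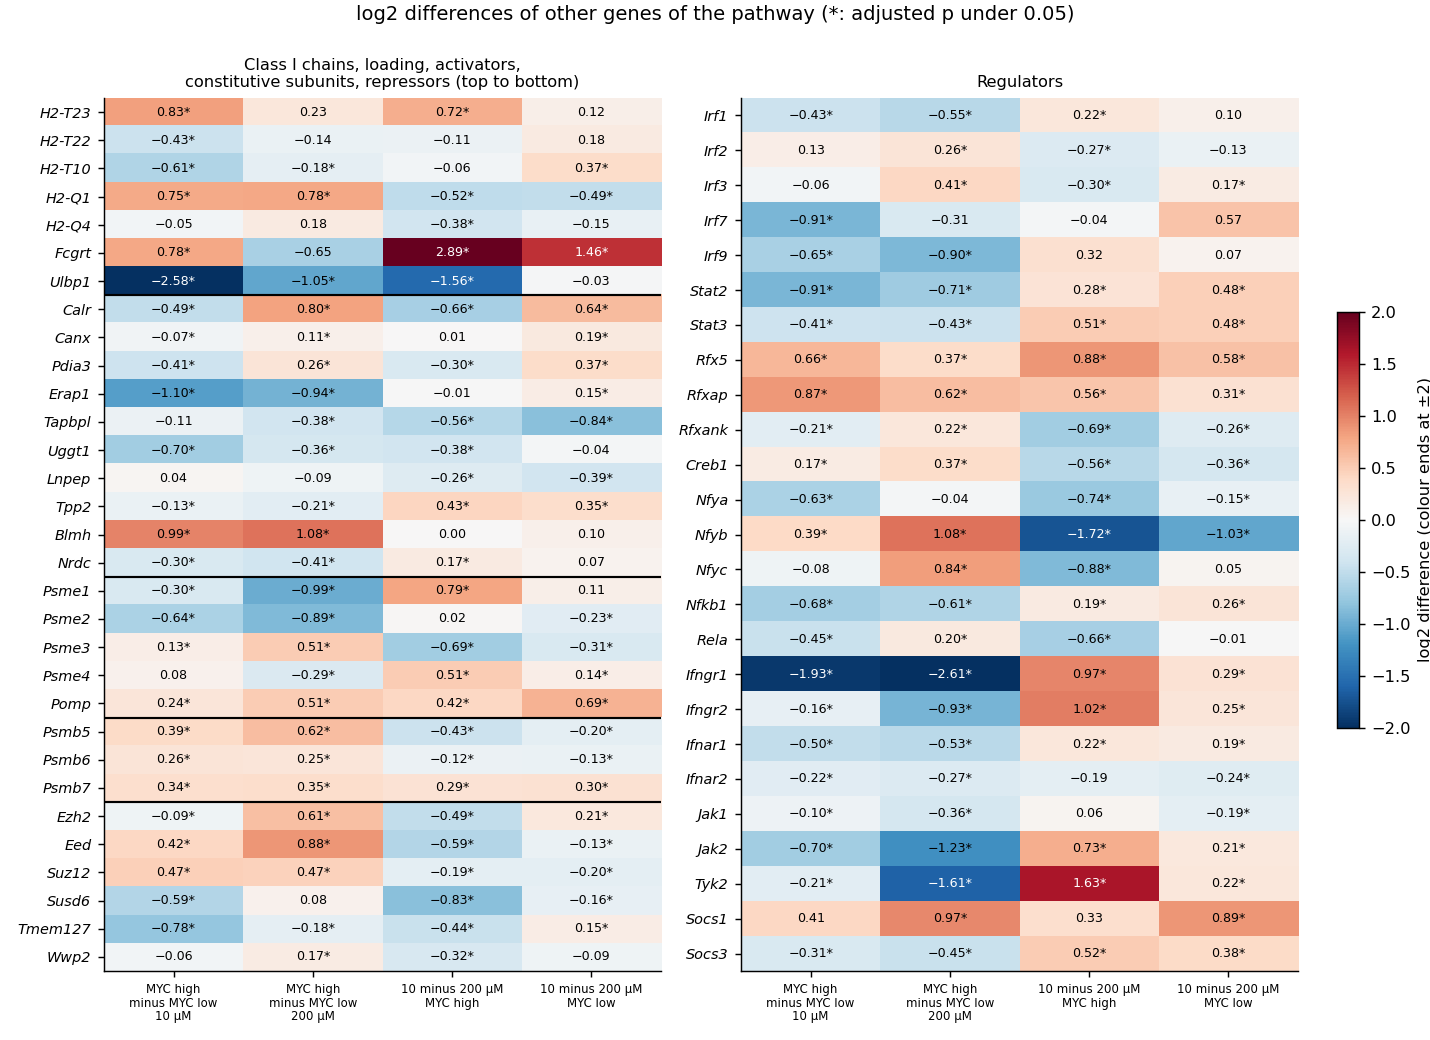
log2 differences of the other tested genes of the pathway in the 4 comparisons, 1 row per gene, with red for positive and blue for negative differences and an asterisk for a limma adjusted p under 0.05. Ifngr1 and Jak2 are negative in both MYC comparisons, and all 6 repressors are negative for 10 against 200 µM in MYC high cells.

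In the chart of pathway differences, Ifngr1, Ifngr2 and Tyk2 are negative in the MYC comparison at 200 µM and positive in the methionine comparison of MYC high cells, which share the MYC high libraries at 200 µM. The constitutive subunits Psmb5, Psmb6 and Psmb7 are positive in both MYC comparisons.

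Genes with the most similar profile were sought for B2m, H2-K1 and Tap1, but not for Tap2. The measure was the root mean square of the log2 differences between the 4 group means after centring, among 9717 genes. B2m was closest to Itm2c, at 0.0142, then Abhd4 at 0.0280 and Golim4 at 0.0321. H2-K1 was closest to Prps2, at 0.0576, and Tap1 to Ckap2, at 0.0112. The likeness is over 4 group means only.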

How the data were processed

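The table as deposited gives each gene a signal value in each library, called normalized counts in the labels. FastQC, fastp, STAR, SAMtools, HTSeq, DESeq2 and the build GRCm39 are named, without order, in the submitters' processing notes. Sources used here give no version, annotation release, strand setting or parameter. The deposited signal values were whole multiples of a step in each library, and 100% came out as whole reads within 0.001, with size factors of 0.875 to 1.13. Symbols and transcript lengths of the identifiers came from GENCODE M21, an annotation of GRCm38. Promoters came from RefSeq, GRCm38.p6, and 8 of the 10 genes matched.

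Testing covered the 12909 genes whose normalized counts averaged at least 10. On log2 of the value plus 1, limma 3.58.1 (R 4.3.3) fitted the 4 group means over 11 libraries with an empirical Bayes trend (degrees of freedom 7 residual and 29 prior). Genes were called at a Benjamini-Hochberg adjusted p under 0.05. The spread is pooled, so the group of 2 libraries is taken to vary as the other groups do. The recovered reads were tested with edgeR 4.0.16 and DESeq2 1.42.0 as alternatives, and all fits were tested on simulated data. Other alternatives were the pseudocount, the filter, the scaling, the groups in the fit, the replicate number as a block and leaving out each library. The 10 genes and the gene lists were chosen with earlier results of these data known. Named genes are all 10 and, from each list, some of the 4 with the smallest adjusted p in a comparison described. Of the listed regulators, 1 is not reported here and is left out of their counts. Similar profiles were sought for B2m, H2-K1 and Tap1. Intervals of differences come from the limma fit and rest on the spread between libraries, and detection limits of 3 reads cover counting error only. Replicates correlated at 0.993 to 0.995 and differed by more than sampling noise.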

Additional observations from a re-analysis of the deposited data

Results flagged for a closer look

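For 4 of the 8 tested genes the methionine response differed between the MYC states by the interaction test, and in each the response of MYC high cells was the more positive. The interaction was 1.71 for Tap2 (log2, limma adjusted p = 7.45e-12), 0.59 for Psmb10 (limma adjusted p = 2.56e-03), 0.33 for Tapbp (limma adjusted p = 3.09e-04) and 0.20 for B2m (limma adjusted p = 4.63e-04). Over all tested genes 60.4% had such a difference. All 4 rest on a group of 2 libraries, MYC high at 200 µM, and without either of them the interactions of these genes still passed.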

How the results depend on the processing

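Over the alternatives, the number of called genes, over all genes and among the 8, stayed within 1.5 times the reported number in each comparison. Of the single differences, 784 kept their direction and call, 24 lost their call, 4 gained one and 10 turned in sign, none of which was called as reported or under the alternative. When a library was left out, the interaction ranged over −0.012 to 0.062 for H2-D1, −0.14 to 0.40 for H2-K1, −0.18 to 0.023 for Tap1 and −0.21 to 0.62 for Psmb9, and the MYC difference of Psmb9 at 200 µM over −0.078 to 0.75. The share of immunoproteasome subunits moved with the length used. With exon union length it was 4.99% for MYC high and 4.99% for MYC low at 10 µM, against 2.21% for MYC high and 3.34% for MYC low at 200 µM. With the longest protein-coding transcript, chosen after seeing the data, it was 3.31% for MYC high and 3.26% for MYC low at 10 µM, against 1.59% for MYC high and 2.24% for MYC low at 200 µM. Same-numbered libraries did not deviate together (correlations of −0.05 to 0.03 over 15 pairs, none above 0.1). With the replicate number as a block 6 of the 8 genes were called for the MYC difference at 200 µM, where Psmb10 was at −0.26 (limma adjusted p = 0.0764), and no other call of the 8 changed. Depth limits Psmb8, Nlrc5, Psmb9 and H2-K1.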
